A study of Mus musculus with 106 samples.

Results

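The uncoupling proteins are encoded in the mouse by Ucp1, Ucp2 and Ucp3, and they were picked by symbol in the 4 tables of gene counts that cover 11 tissues of mice kept at 10 °C, 22 °C or 34 °C. Each symbol was found in every table, which gave 3 genes out of 19168 named in all 4 tables, measured in 106 libraries of bulk RNA sequencing. All mice were wild type males without any allele or agent, and the treatment was the housing temperature alone. Mice labelled as strain C57BL/6 and 11 weeks old gave the 10 °C and 22 °C samples of interscapular brown fat (iBAT), inguinal subcutaneous fat (ingSAT), perigonadal visceral fat (pgVAT), spleen, ileum, liver, brain and hypothalamus, with 3 libraries in each group, and those of bone marrow with 6 and spinal cord with 5. Mice labelled as strain C57BL/6J and 12 weeks old gave iBAT, ileum, liver and brain without the hypothalamus at 34 °C and 22 °C, also with 3 libraries in each group, and quadriceps with 3 libraries at 10 °C, 3 at 34 °C and 6 at 22 °C. Cold mice spent 2 weeks at 10 °C after 5 days each at 18 °C and 14 °C, and warm mice 4 weeks at 34 °C. Most libraries came from pools of 2 mice, while bone marrow and spinal cord came from single mice. The libraries of 1 group can thus hide differences between animals, and p-values measure the spread between pools.

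Levels are given as CPM, the count of a gene scaled to the total of its library, and changes as log2 fold changes between temperatures from a model fitted to all genes of a comparison. A gene was called changed where it passed the limits the study used, which are a fold change of over 1.5 and a p, before adjustment, no higher than 0.05. The Benjamini-Hochberg adjusted p over all genes tested stands beside the calls of the members. Other genes and markers are named by these limits, most without an adjusted p, and several of them did not pass adjustment. In each of the 16 comparisons the share of all tested genes that met these limits is printed as the background. Totals ran from 4262403 to 62880248 counts. The smallest was the 22 °C library 3 of pgVAT, in which Ucp1 was at 332 CPM and Cidea, a lipid droplet protein abundant in brown fat, at 75.3 CPM. Library 3 of the 22 °C livers and library 2 of the 10 °C livers also held fat genes, and library 2 of the 22 °C brains held 37865 CPM of the liver gene Alb. No marker of the main cell type of a tissue was at 0 throughout any group. Results that rest on these libraries are given with and without them. The 4 tables were counted and prepared separately, so levels are ordered within a table only. In tissue samples, fewer cells of a type and less RNA per cell cannot be told apart.

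The uncoupling proteins are carriers of the inner mitochondrial membrane and belong to the SLC25 family. UCP1 is the protein of brown and beige fat cells that lets protons return to the matrix without making ATP, so that the energy of fuel oxidation is released as heat, and it is switched on by free fatty acids that lipolysis sets free under noradrenaline. Transcription of Ucp1 is driven by cAMP signalling from beta adrenergic receptors together with PPAR factors, PGC-1α and thyroid hormone. UCP2 is widely expressed, with much of it in immune and gut tissue, and has been linked to the export of carbon metabolites from mitochondria, while UCP3 is a protein of skeletal muscle and brown fat whose gene responds to fatty acids. Neither UCP2 nor UCP3 is regarded as a classical heat producer.

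On GRCm38 (mm10), Ucp1 (ENSMUSG00000031710) lies on chromosome 8 at 83290352 to 83298452 with 6 exons. Ucp3 (ENSMUSG00000032942) and Ucp2 (ENSMUSG00000033685) are neighbours on chromosome 7, at 100472990 to 100486432 with 7 exons and at 100493337 to 100502020 with 8 exons. All of them are on the plus strand, and 6904 bases separate the end of Ucp3 from the start of Ucp2. The last 305 bases of the longest annotated Ucp2 transcript overlap Dnajb13 on the minus strand, which was at 0.496 to 35.9 CPM in the table of 8 tissues and at most 1.33 CPM elsewhere, and reads there cannot be told apart where the library did not keep the strand. Ucp3 is overlapped by the antisense gene Gm10603 over 104 exonic bases. The promoters are shown because Ucp1 and Ucp3 moved in the same direction in warm iBAT and in cold ingSAT while Ucp2 did not move with them. Elsewhere Ucp1 and Ucp3 parted, since in cold quadriceps Ucp1 rose and Ucp3 fell, and in cold iBAT Ucp1 rose and Ucp3 was not called. Each line gives the 250 bases before the RefSeq transcription start and the 50 bases after it, 5′ to 3′ on the plus strand, with matches to AGGTCA, the hexamer bound by PPAR and related nuclear receptors, and to TGACG, the core of cAMP response elements, in capitals on either strand (CGTCA is TGACG on the other strand).
Ucp1 (chr8:83290098-83290397): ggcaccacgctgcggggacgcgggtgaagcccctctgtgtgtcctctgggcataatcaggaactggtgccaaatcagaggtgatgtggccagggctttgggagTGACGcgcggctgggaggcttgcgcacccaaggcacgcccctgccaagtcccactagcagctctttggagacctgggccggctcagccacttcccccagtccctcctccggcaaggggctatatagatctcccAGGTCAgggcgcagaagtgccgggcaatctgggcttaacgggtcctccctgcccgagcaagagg
Ucp2 (chr7:100493108-100493407): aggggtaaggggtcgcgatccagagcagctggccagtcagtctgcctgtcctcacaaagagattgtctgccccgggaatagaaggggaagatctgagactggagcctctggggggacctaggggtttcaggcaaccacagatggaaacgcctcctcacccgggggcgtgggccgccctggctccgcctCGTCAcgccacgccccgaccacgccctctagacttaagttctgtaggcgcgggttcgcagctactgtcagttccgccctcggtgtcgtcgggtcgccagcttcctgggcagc
Ucp3 (chr7:100472741-100473040): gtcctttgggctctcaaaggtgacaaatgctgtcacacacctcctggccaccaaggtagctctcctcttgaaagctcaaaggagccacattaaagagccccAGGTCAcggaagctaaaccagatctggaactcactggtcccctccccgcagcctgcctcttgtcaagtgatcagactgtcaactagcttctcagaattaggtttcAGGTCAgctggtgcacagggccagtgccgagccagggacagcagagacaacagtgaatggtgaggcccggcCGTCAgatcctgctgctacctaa

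The Ucp1 window held 1 AGGTCA at position -14 and the Ucp3 window held it at -149 and -44, counted from the RefSeq start, whereas the Ucp2 window had no match. AGGTCA was present in 16.3% of 32851 mouse promoter windows of the same length. TGACG was found in all of them, at -147 in Ucp1, at -62 in Ucp2 and at 28 in Ucp3, and in 20.8% of all windows. Ucp2 had 21 CG dinucleotides in its window and GGGCGG at -79 and at 11, a motif of 35.7% of all windows, while Ucp1 had 15 CG dinucleotides and a TATATA at -28, and Ucp3 had 5 CG dinucleotides. TATAAA or TATATA was present in 17.1% of windows. These matches are letters in a short window, and the enhancers that lie farther upstream are not part of it. The part of the matches in the changes of the members was not tested.

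Ucp1 was highest in iBAT in both tables that hold this tissue. At 22 °C its libraries held 5968, 4224 and 8545 CPM in the table of 8 tissues and 7589, 4893 and 5776 CPM in the table of the warm tissues. Outside iBAT, in the 8 tissues at 22 °C, mean Ucp1 was at 112 CPM in pgVAT and 27.3 CPM in liver, each carried by library 3, and at 8.06 CPM in ingSAT. The ranges of these 3 tissues overlapped, so their order is not resolved. All other tissues except quadriceps had at most 1.41 CPM in every library at any temperature. That value came from spinal cord, where Ucp1 ranged from 0.144 to 0.869 CPM at 22 °C and from 0.224 to 1.41 CPM at 10 °C (exact permutation p = 0.603).

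Ucp2 was detected in every library, and in the table of 8 tissues it was highest in spleen. Bone marrow, which has a table of its own, ranged at 22 °C from 1684 to 1923 CPM (mean 1808 ± 94.0 CPM, SD, n = 6). In the table of 8 tissues, spleen (489 ± 8.32 CPM, SD, n = 3) lay above ileum (170 ± 13.2 CPM), and ileum above pgVAT (102 ± 43.8 CPM) and ingSAT (101 ± 18.9 CPM), whose ranges overlapped. Hypothalamus (27.4 CPM) and iBAT (24.7 CPM) overlapped as well, as did liver (16.03 CPM) and brain (14.6 CPM) at the bottom. In the table of the warm tissues, ileum at 22 °C had 494 ± 8.16 CPM and quadriceps 18.9 ± 6.12 CPM (n = 6). With TMM scaling, which weighs out a few dominant genes, 4 of the 8 tissues kept their place in this order of Ucp2. Liver did not, and with this scaling it stood above hypothalamus. The TMM factors were 0.555 to 0.562 in the 22 °C livers and 1.21 to 1.25 in the 22 °C hypothalamus. Ileum thus stood at different levels in tables made with different kits, and only the order within a table is read.

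Ucp3 was highest in iBAT in the first table and in iBAT and quadriceps in the other. At 22 °C, iBAT held 230 ± 49.8 CPM (SD, n = 3) in the first table and 225 ± 8.97 CPM in the other, where quadriceps held 174 ± 45.5 CPM (n = 6) with overlapping ranges. ingSAT (54.1 ± 9.30 CPM) and pgVAT (31.7 ± 17.7 CPM) came next and overlapped each other. Hypothalamus (7.61 CPM) was above brain (4.06 CPM), and spleen, ileum and liver were all below 4 CPM. In the livers of the warm experiment Ucp3 had 0 counts in all 6 libraries, which allows up to 0.0771 CPM when 3 counts are taken as the limit and covers counting error only. 

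**Figure D1:**
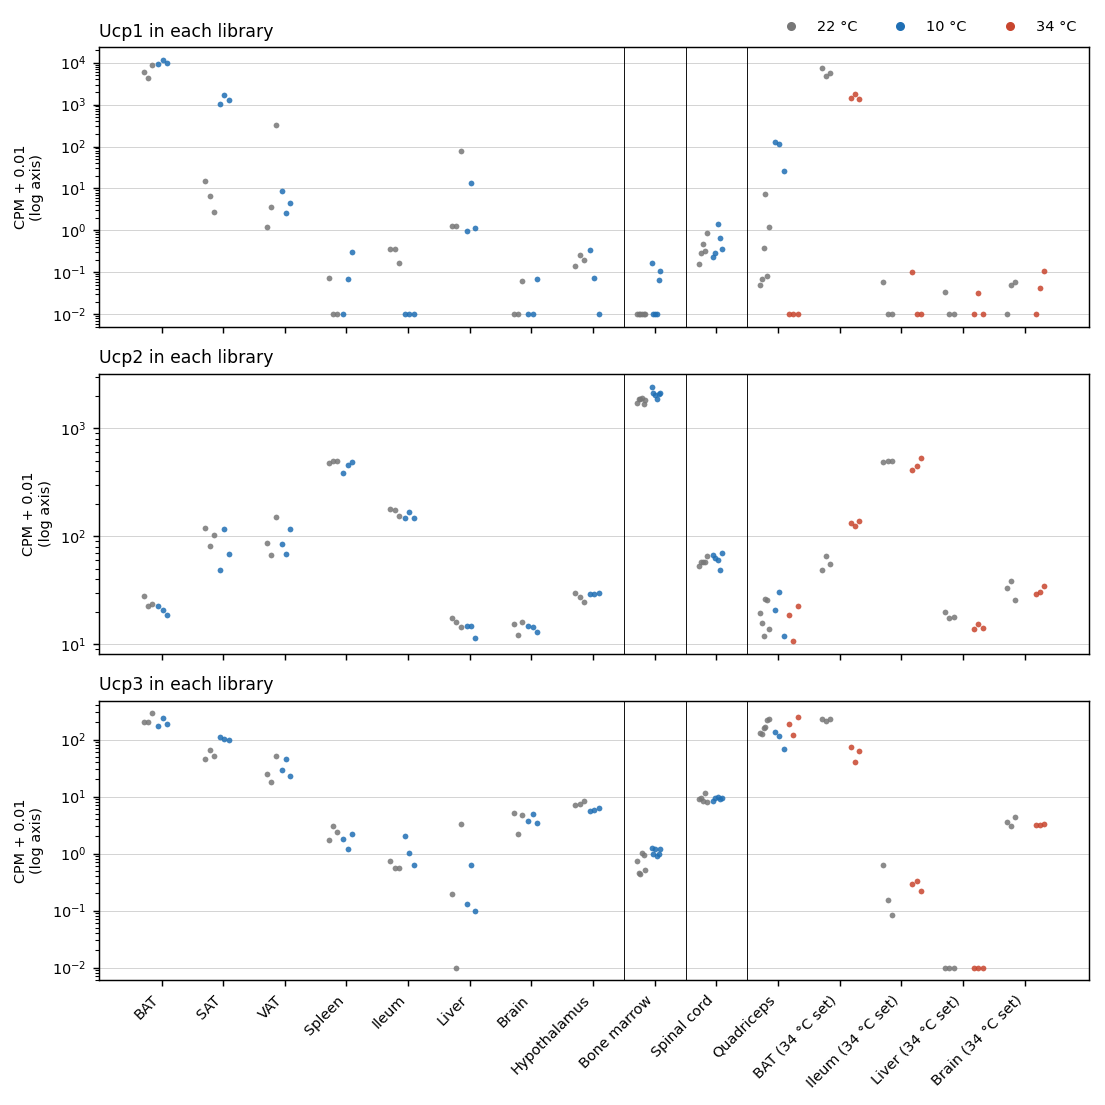
Level of Ucp1, Ucp2 and Ucp3 in every library of 15 sets of a tissue, as CPM + 0.01 on a log axis, with 22 °C in grey, 10 °C in blue and 34 °C in red, and vertical lines between count tables. Ucp1 stands at or above 1330 CPM in all iBAT libraries and spreads most in ingSAT, pgVAT, liver and quadriceps, Ucp2 is present in all tissues, and Ucp3 is highest in iBAT and quadriceps.

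To compare the members with each other, CPM was divided by transcript length (1636 bases of Ucp1, 1597 of Ucp2 and 2448 of Ucp3). In iBAT at 22 °C Ucp1 made up 97.1% of the summed CPM per kilobase of the family in the first table and 96.6% in the other. In spleen, ileum and bone marrow over 99% of the family was Ucp2 at either temperature. In quadriceps at 22 °C Ucp3 made up 84.5%, Ucp2 14.4% and Ucp1 1.04%. The longest annotated Ucp2 transcript would lower its per kilobase levels 2.497-fold.

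**Figure D2:**
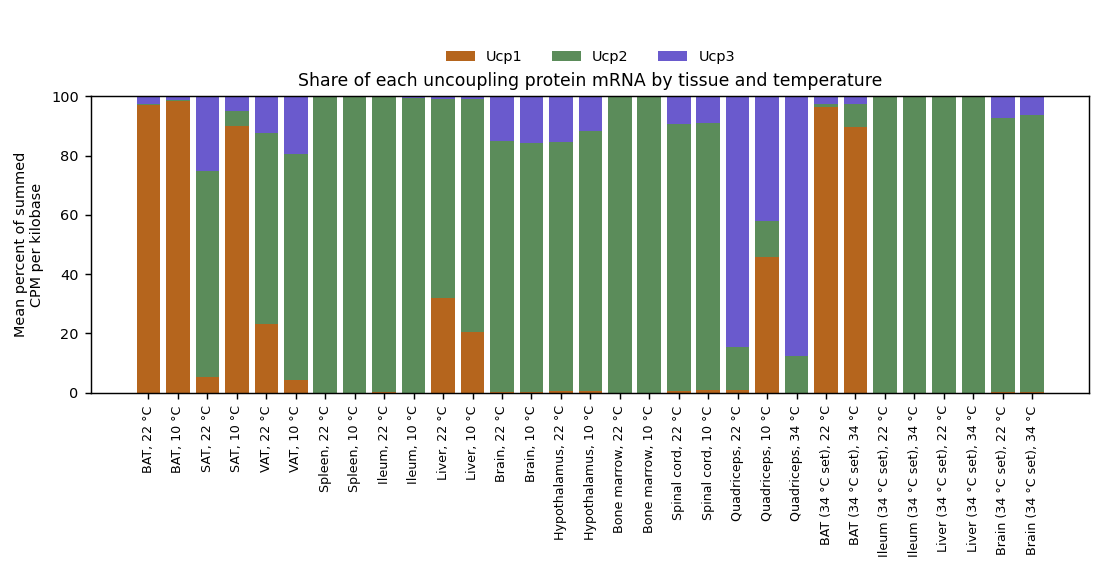
Mean share of each member in the summed CPM per kilobase of Ucp1, Ucp2 and Ucp3 (percent, stacked bars) for each tissue and temperature. The bars change most in ingSAT, where Ucp1 goes from 5.24% at 22 °C to 89.9% at 10 °C, and in quadriceps, where it goes from 1.04% to 45.6%.

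In cold iBAT, Ucp1 rose. The 10 °C libraries held 9030, 11489 and 9952 CPM against 5968, 4224 and 8545 CPM at 22 °C, so every cold library was above every control. The log2 fold change was 0.86 (SE 0.285, adjusted p = 0.0850, edgeR quasi-likelihood F-test), and 13.2% of all tested genes were called in this comparison. The call rested on library 2 of the controls, since without it the log2 fold change was 0.66 and no longer met the limit on p (adjusted p = 0.262). Ucp2 and Ucp3 were not called. Ucp2 was at 27.95, 22.4 and 23.8 CPM at 22 °C and 22.6, 20.6 and 18.6 CPM at 10 °C, and Ucp3 at 202, 201 and 288 CPM and 175, 238 and 184 CPM, with overlapping groups for both. Their log2 fold changes were -0.10 (SE 0.123) and -0.05 (SE 0.203). The summed muscle markers of these libraries were lower in the cold, 2895 to 5596 CPM against 7839 to 12198 CPM, with 9 of 11 called lower, and muscle is a tissue that expresses Ucp3. Hepatocyte markers were lower too, at 115 to 158 CPM against 181 to 397 CPM with 5 of 6 called lower, and Alb was at 37.1 to 64.6 CPM in the controls and at most 0.366 CPM in the cold. Epididymis markers were at 2.44 to 28.9 CPM in the cold and 0 in the controls (3 of 3 higher), and 3 of 5 erythroid and 2 of 2 proliferation markers were called higher. Of the brown fat markers 4 of 11 were called higher and 1 lower, with sums of 6107 to 6333 CPM and 5345 to 6639 CPM. The part of other tissues in the values of the members was not tested.

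In cold ingSAT, Ucp1 and Ucp3 rose together and Ucp2 was not called. Ucp1 went from 14.9, 6.65 and 2.68 CPM at 22 °C to 1045, 1689 and 1291 CPM at 10 °C, without overlap. The spread among the controls was wide (SD 6.22 CPM at a mean of 8.06 CPM). Its log2 fold change was 7.35 (SE 0.694, adjusted p = 0.0046), against a background of 16.3% of genes called. Ucp3 went from 46.5, 64.5 and 51.2 CPM to 110, 104 and 99.7 CPM, again without overlap, with a log2 fold change of 0.95 (SE 0.162, adjusted p = 0.0209). It stayed called when any of the 6 libraries was left out. Ucp2 was at 119, 81.6 and 102 CPM at 22 °C and 48.5, 117 and 68.7 CPM at 10 °C. Library 2 of the cold group stood in the range of the controls, and the log2 fold change was -0.40 (SE 0.288, adjusted p = 0.395) with it and -0.73 (adjusted p = 0.149) without it, where it met the limits. The summed brown fat markers went from 225 to 305 CPM at 22 °C up to 1414 to 1797 CPM at 10 °C, with 8 of 10 called higher and 1 lower, beside the Ucp1 values. Cold ingSAT thus reached a Ucp1 level of 1342 ± 325 CPM (SD, n = 3) in place of 8.06 ± 6.22 CPM, and a Ucp3 level of 104 ± 5.11 CPM in place of 54.1 ± 9.30 CPM. Cold library 2 had a summed muscle signal of 38.0 CPM, while the other 5 libraries of ingSAT had 1454 to 3418 CPM. Ucp3 was at 104 CPM in the former, and the part of muscle in the Ucp3 value was not tested. The summed macrophage markers went from 1554 to 2501 CPM at 22 °C to 1229 to 1393 CPM at 10 °C, with 5 of 8 called lower, beside the Ucp2 values. The part of macrophages in the Ucp2 value was not tested.

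In cold pgVAT no member was called, and the outcome for Ucp1 turned on 1 library. Its values were 1.22, 3.55 and 332 CPM at 22 °C and 8.78, 2.58 and 4.50 CPM at 10 °C. With all libraries the log2 fold change was -4.30 (SE 1.89, adjusted p = 0.593), and without the 22 °C library of 332 CPM it was 1.13 (SE 0.719, adjusted p = 0.912). It met the limits in the negative direction when either of the other controls was left out (-4.89 in both fits). Of all genes 7.94% were called with this library and 3.71% without it. The same library held Cidea at 75.3 CPM, against 1.81 and 4.73 CPM in the other controls, and its summed brown fat markers were 270 CPM against 41.5 and 48.2 CPM. The cold libraries 1 and 3 held 18189 and 16090 CPM of epididymis markers, against at most 2657 CPM in the controls, and the part of that tissue was not tested. Ucp2 was at 86.3, 67.6 and 151 CPM at 22 °C and 85.3, 68.0 and 118 CPM at 10 °C. Ucp3 was at 25.4, 18.01 and 51.6 CPM and 29.4, 46.4 and 23.4 CPM. Both overlapped between the groups, and both were highest among the controls in the same library 3. Their log2 fold changes were -0.10 (SE 0.332) and 0.18 (SE 0.441), and 0.25 and 0.66 without it.

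**Figure D3:**
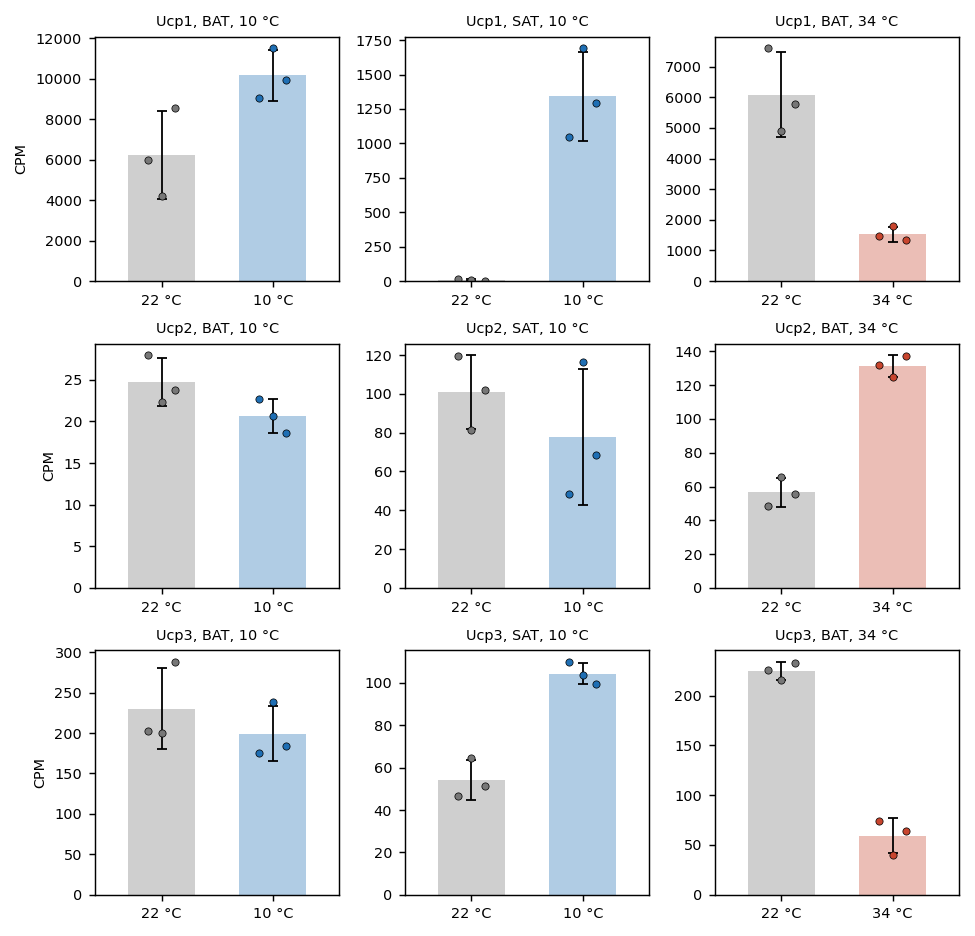
CPM of Ucp1, Ucp2 and Ucp3 in each library of iBAT at 10 °C and 22 °C, ingSAT at 10 °C and 22 °C, and iBAT at 34 °C and 22 °C, with points for libraries, bars for means and error bars for SD (n = 3). Ucp1 in ingSAT moves from at most 14.9 CPM to at least 1045 CPM, and in warm iBAT Ucp1 and Ucp3 lie below and Ucp2 above all of their controls.

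The changes were then compared between fat depots in 1 model. The Ucp1 change was larger in ingSAT than in iBAT by 6.46 on the log2 scale (SE 1.83), which did not pass adjustment over all genes (adjusted p = 0.199, with 0.0691% of genes passing an adjusted p under 0.05). The pgVAT library of 332 CPM entered this estimate of the spread, and without it the difference was 6.46 with an adjusted p of 0.0035. Against pgVAT the difference of ingSAT was 11.64 (SE 2.07, adjusted p = 0.0406, background 0.159%), or 6.11 without that library (adjusted p = 0.0197). In the fits that held that library, the difference of ingSAT from pgVAT had an adjusted p of 0.0557 to 0.157 when any 1 of 14 other libraries of the 3 depots was left out. For pgVAT against iBAT the Ucp1 difference was -5.18 (adjusted p = 0.182, background 0.407%) with that library and 0.35 without it. For Ucp3 the differences were 0.97 (SE 0.465, adjusted p = 0.471) between ingSAT and iBAT and 0.76 (adjusted p = 0.453) between ingSAT and pgVAT. No difference between depots was called for Ucp2.

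In warm iBAT all members changed, Ucp1 and Ucp3 downward and Ucp2 upward. Ucp1 went from 7589, 4893 and 5776 CPM at 22 °C to 1465, 1789 and 1330 CPM at 34 °C. Its log2 fold change was -2.26 (SE 0.200, adjusted p = 0.00107). Ucp3 went from 226, 215 and 233 CPM to 74.1, 39.8 and 64.0 CPM, with a log2 fold change of -2.20 (SE 0.194, adjusted p = 0.00107). Ucp2 went the other way, from 48.5, 65.9 and 55.4 CPM to 132, 125 and 138 CPM, with a log2 fold change of 0.94 (SE 0.132, adjusted p = 0.00368). None of the 3 genes overlapped between temperatures, in a comparison that called 19.4% of all genes. The share of the family taken by Ucp2 went from 0.969% to 8.02%, that of Ucp1 from 96.6% to 89.6%, and that of Ucp3 was 2.45% and 2.40%. Markers of other cells moved beside the Ucp2 value. The summed macrophage markers were at 136 to 229 CPM at 22 °C and 339 to 494 CPM at 34 °C, with 2 of 7 called higher, and 4 of 5 proliferation genes were called higher, their sum going from 2.37 to 6.75 CPM up to 17.2 to 27.8 CPM. The summed brown fat markers were at 5991 to 7223 CPM and 6709 to 7298 CPM, and of 11 such genes 1 was called higher and 3 lower (Elovl3, Dio2 and Otop1), with a median log2 fold change of -0.25. The part of other cells in the Ucp2 value was not tested. Muscle signal was at 3.99 and 9.82 CPM in 2 of the controls and 6022 CPM in the other, and Ucp3 was at 226 and 233 CPM in the former and 215 CPM in the latter. The warm libraries had 6303, 1574 and 1755 CPM of muscle signal beside their lower Ucp3.

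These changes of iBAT were tested against those of other warm tissues. The Ucp2 change in iBAT exceeded that in ileum by 0.95 (SE 0.293, adjusted p = 0.0260), in liver by 1.18 (SE 0.298, adjusted p = 0.0109), in brain by 0.95 (SE 0.295, adjusted p = 0.0373) and in quadriceps by 1.10 (SE 0.280, adjusted p = 0.00953) on the log2 scale. Without 22 °C iBAT library 1 or 3 the adjusted p for ileum was 0.0720 or 0.0548, and without these or 34 °C library 1 or 3 that for brain was between 0.0519 and 0.0989. The Ucp3 change in iBAT was more negative than that in brain, by -2.04 (SE 0.396, adjusted p = 0.00168), and than that in quadriceps, by -2.26 (SE 0.348, adjusted p = 0.000142). The shares of genes whose changes differed at an adjusted p under 0.05 were 17.3% for ileum, 9.67% for liver, 11.0% for brain and 12.8% for quadriceps. All of these differences share the iBAT libraries and are not independent of each other.

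In quadriceps, Ucp1 and Ucp3 went in opposite directions in the cold. Ucp1 was at 131, 114 and 26.6 CPM at 10 °C and at 0.0389, 0.0577, 0.380, 7.55, 0.0738 and 1.16 CPM in the 6 controls, so that the lowest cold library was above the highest control. The log2 fold change was 5.77 (SE 1.09, adjusted p = 0.0435), and 3.32% of all genes were called. Without the control of 7.55 CPM the log2 fold change was 7.95 (adjusted p = 0.00256), and against only the 3 controls whose columns stood with the cold libraries it was 8.84 (adjusted p = 0.0118). Ucp3 was at 136, 115 and 68.3 CPM at 10 °C and at 131, 126, 163, 169, 224 and 233 CPM at 22 °C. It fell by 0.87 on the log2 scale (SE 0.234, adjusted p = 0.127), although the highest cold library overlapped the controls, and against the 3 controls alone it fell by 0.64 (adjusted p = 0.360). The controls whose columns stood with the cold libraries held 126 to 163 CPM of Ucp3 and the others 169 to 233 CPM. The change against all 6 thus also holds this difference between control sets. Ucp3 was called with any 1 library left out. Ucp2 was at 20.6, 30.5 and 12.0 CPM in the cold, overlapping its controls at 12.0 to 26.3 CPM (log2 fold change -0.03, SE 0.276).

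Markers of fat cells and other tissue were read beside the Ucp1 values of quadriceps. The summed adipocyte markers were 1170, 1488 and 430 CPM in the cold libraries, in the order of the Ucp1 values above, 886 CPM in the control with 7.55 CPM of Ucp1 and 277 to 532 CPM in the other controls. Ucp1 was at 26.6 CPM in the cold library with 430 CPM of adipocyte markers and at 7.55 CPM in the control with 886 CPM. Of the adipocyte markers 6 of 8 were called higher and 0 lower. Of the brown fat markers 5 of 9 were called higher and 0 lower, with a median log2 fold change of 0.96. The summed brown fat markers overlapped, at 685, 792 and 479 CPM in the cold and 477 to 728 CPM at 22 °C. That sum was also at 472 to 706 CPM in warm quadriceps, which had no Ucp1 count. It is therefore not read as brown fat signal in this tissue. Cidea was at 51.4, 43.1 and 11.7 CPM in the cold, at 16.7 CPM in the same control and at 1.34 to 4.33 CPM in the other controls. The summed muscle markers were 211860 to 268687 CPM in the cold and 236943 to 306270 CPM at 22 °C. Of markers of other tissue, 2 of 2 tested epididymis and 2 of 2 tested neutrophil markers were called higher in the cold. The epididymis sums were 174.8, 0.0789 and 0.0172 CPM in the cold libraries against at most 0.0724 CPM, so that signal stood in cold library 1. The neutrophil sums were 0.223 to 48.5 CPM against 0.0247 to 1.61 CPM. The part of fat and other tissue in the Ucp1 value was not tested. In these libraries Ucp1 made up 45.6% of the family on average, while Ucp3 made up 41.9%.

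At 34 °C quadriceps had no Ucp1 count in any of 3 libraries. Against the mean of all 6 controls the level was at least 22.1-fold lower, with 3 counts in each library as the limit, and against the 3 controls whose columns stood with the warm libraries at least 41.9-fold lower. Without the control of 7.55 CPM these limits were 4.90-fold and 8.85-fold. An exact two-sided permutation test gave p = 0.0238 with 6 controls and p = 0.1 with 3, each the smallest possible for these numbers of libraries. Of the 6 controls, 5 were under 2 CPM themselves, and the median of all 6 was 0.227 CPM. The lowest held 2, 3 and 4 counts (0.0389, 0.0577 and 0.0738 CPM), near the 0.0699 CPM that 3 counts make in the warm libraries. The fold limits thus rest on the higher controls. The edgeR test met the limit on p, with an adjusted p = 0.740, and 1.34% of genes were called. The limit on p was missed when any of the 3 warm libraries was left out. Ucp3 was at 190, 119 and 246 CPM (log2 fold change 0.04, SE 0.225) and Ucp2 at 18.7, 10.7 and 22.5 CPM (-0.18, SE 0.278), neither called. Both quadriceps comparisons used the same controls.

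**Figure D4:**
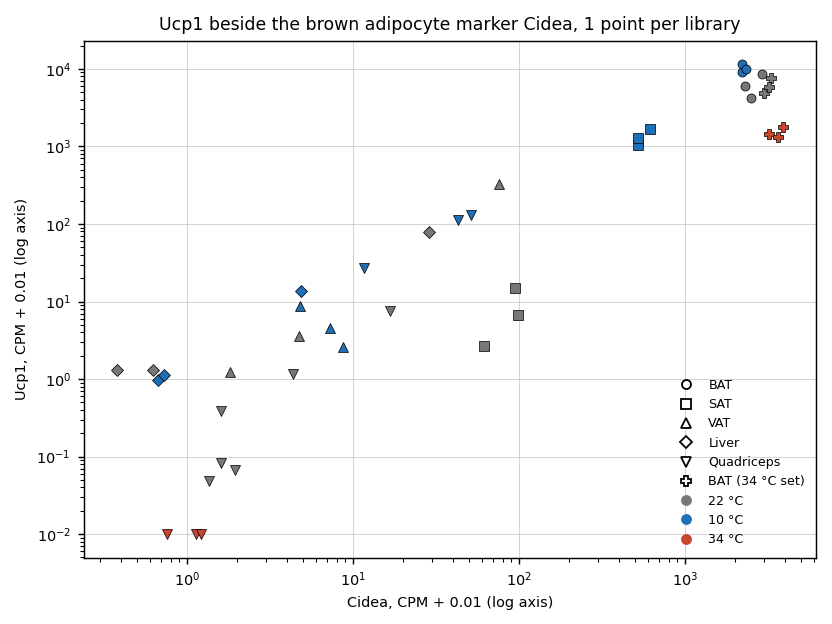
Ucp1 against Cidea in each library of iBAT, ingSAT, pgVAT, liver and quadriceps, both as CPM + 0.01 on log axes, with shapes for tissues and colours for temperature. The 22 °C libraries of pgVAT and liver with Ucp1 at 332 and 79.4 CPM and 2 of the 3 cold quadriceps libraries hold more Cidea than the other libraries of their tissue.

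In liver at 10 °C, Ucp1 was at 0.963, 13.8 and 1.13 CPM against 1.29, 1.29 and 79.4 CPM, with a log2 fold change of -2.34 (SE 1.42, adjusted p = 0.399) that was -0.23 without the libraries of 13.8 and 79.4 CPM. It was 2.06 without the control of 79.4 CPM alone, and it met the limits without the cold library of 13.8 CPM (-4.63) or without control 1 (-2.90). The control of 79.4 CPM also held 28.7 CPM of Cidea, 16.99 CPM of the fat hormone gene Adipoq and 201 CPM of summed adipocyte markers, against 19.4 and 21.97 CPM in the other controls. Ucp3 was at 3.33 CPM in this library and at most 0.619 CPM in the other 5 (exact permutation p = 0.8). Hepatic Ucp2 was at 14.9, 14.7 and 11.4 CPM at 10 °C and 17.5, 16.1 and 14.5 CPM at 22 °C, with overlap and a log2 fold change of -0.18 (SE 0.127, adjusted p = 0.477). Of all genes 3.28% were called, or 5.75% without the pair of libraries.

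In liver at 34 °C, Ucp2 was at 13.9, 15.3 and 14.1 CPM, below all controls at 19.9, 17.5 and 17.8 CPM. The log2 fold change was -0.28 (SE 0.104, adjusted p = 0.354), and since it stayed within 1.5-fold it was not called. Of all genes 3.38% were. The summed hepatocyte markers were 106589 to 118664 CPM at 22 °C and 143471 to 145162 CPM at 34 °C, and those of Kupffer cells, the macrophages of the liver and a known site of Ucp2, 52.6 to 85.1 CPM and 51.1 to 68.9 CPM. The part of cell makeup was not tested.

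In bone marrow, Ucp2 was at 2419, 2140, 2046, 1874, 2081 and 2107 CPM at 10 °C and at 1711, 1875, 1847, 1923, 1684 and 1807 CPM at 22 °C. Most cold libraries were above all controls, but the lowest cold library was inside their range. The log2 fold change of 0.20 (SE 0.0605, adjusted p = 0.0294) passed adjustment but was under the 1.5-fold limit, so it was not called, in a comparison with 1.29% of genes called. Ucp3 was near the detection limit, at 0.903 to 1.22 CPM against 0.425 to 1.02 CPM (exact permutation p = 0.0173, two-sided). Beside this, 7 of 7 neutrophil, 4 of 4 erythroid and 5 of 5 B cell markers had an unadjusted p under 0.05 in the edgeR test, but all of them stayed within 1.5-fold, so that 0 were called. Neutrophil markers were at 36854 to 39267 CPM in the cold and 41232 to 56254 CPM at 22 °C, erythroid markers at 10768 to 13572 CPM and 8197 to 10357 CPM, and B cell markers at 748 to 865 CPM and 539 to 762 CPM. Their part in the Ucp2 value was not tested.

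In spleen, Ucp2 was at 383, 456 and 486 CPM at 10 °C and 480, 492.8 and 495 CPM at 22 °C (log2 fold change -0.15, SE 0.112, adjusted p = 0.629, background 2.68%). Spleen Ucp3 was at 1.22 to 2.18 CPM and 1.75 to 3.05 CPM. In ileum at 10 °C, Ucp2 was at 148, 167 and 147 CPM against 179, 176 and 155 CPM (-0.09, SE 0.0778, adjusted p = 0.590, background 2.71%), and at 34 °C at 413, 450 and 527 CPM against 485, 500 and 496 CPM (-0.05, SE 0.133, adjusted p = 0.899, background 2.83%). All of these overlapped. Ileal Ucp3 met the limits at 10 °C on few counts, with 47, 17 and 10 counts (2.06, 1.01 and 0.615 CPM) against 11 to 14 counts (0.539 to 0.719 CPM). Adipocyte markers were at 126 to 410 CPM in these cold libraries and 66.1 to 148 CPM in the controls, with 3 of 8 called higher, and their part was not tested. The Ucp3 log2 fold change was 1.13 (SE 0.469, adjusted p = 0.280), the groups overlapped, and the call was lost when any of 4 of the 6 libraries was left out, with an adjusted p of up to 0.514, and without cold library 1 the gene was under the filter. Ileal Ucp1 had 4 to 7 counts in the controls and 0 in the cold libraries, at least 1.75-fold lower by the limit of 3 counts (exact permutation p = 0.1, the smallest possible).

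In the nervous system no member was called. Hypothalamic Ucp3 was at 5.50, 5.90 and 6.43 CPM at 10 °C, below all controls at 7.13, 7.28 and 8.44 CPM, with a log2 fold change of -0.36 (SE 0.129, adjusted p = 0.759) that was under the fold limit. Of all genes 0.578% were called there. Hypothalamic Ucp2 was at 29.2 to 29.8 CPM against 24.8 to 30.1 CPM (0.11, SE 0.0805). In brain at 10 °C, Ucp2 was at 14.7, 14.4 and 12.99 CPM against 15.5, 12.1 and 16.2 CPM and Ucp3 at 3.72, 4.96 and 3.47 CPM against 5.20, 2.21 and 4.76 CPM, where the values of 12.1 and 2.21 CPM belong to the library with liver RNA. The log2 fold changes were -0.18 (SE 0.107) and -0.09 (SE 0.256), and -0.14 and -0.26 without it, with 2.72% of genes called and 0.801% without it. In warm brain, Ucp2 was at 29.5, 30.8 and 34.6 CPM against 33.5, 38.5 and 25.9 CPM and Ucp3 at 3.12 to 3.29 CPM against 3.06 to 4.33 CPM (-0.20, SE 0.173), beside 0.193% of genes called. In spinal cord, Ucp2 ranged from 48.6 to 69.5 CPM at 10 °C and from 53.4 to 66.0 CPM at 22 °C (0.08, SE 0.0850) and Ucp3 from 8.48 to 9.79 CPM and from 8.04 to 11.6 CPM (-0.00, SE 0.103), with 0.271% of genes called.

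**Figure D5:**
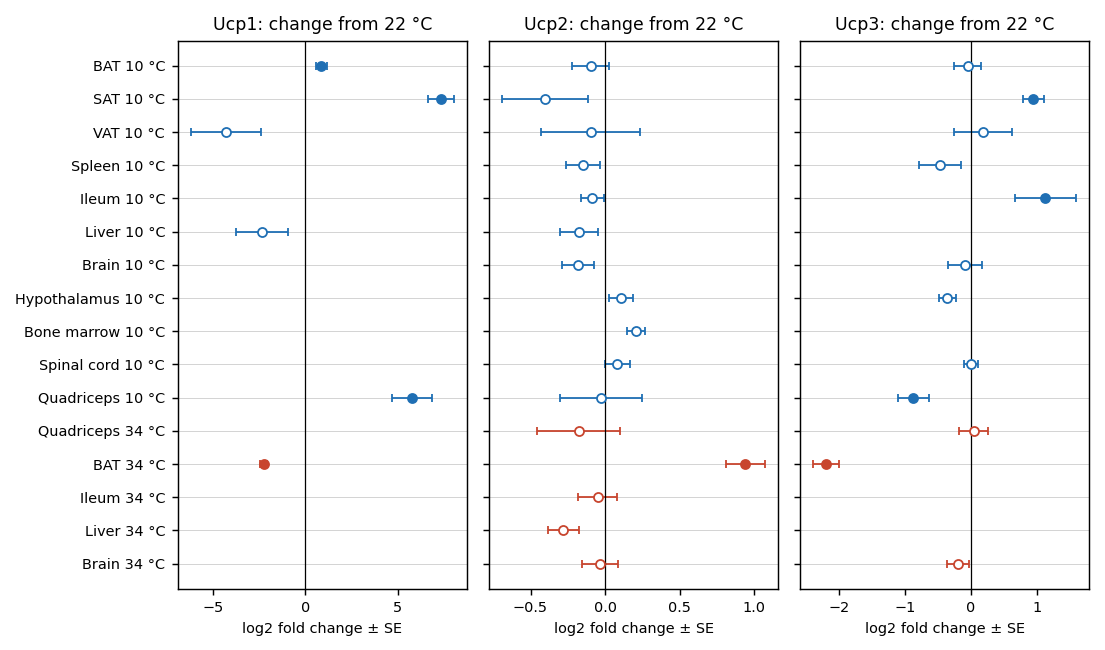
Log2 fold change of each member against 22 °C in the 16 comparisons, with bars of 1 SE, filled points where the limits on p and fold change were met and open points elsewhere. Members too low for the model are not drawn, nor is Ucp1 in quadriceps at 34 °C, which had 0 counts. The largest rises are Ucp1 in cold ingSAT (7.35) and cold quadriceps (5.77). Ucp1 in cold pgVAT and cold liver lies well below 0 with open points, and each changed sign without 1 control. Only in warm iBAT are all 3 members filled.

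Genes known to control Ucp1 transcription, such as adrenergic receptors, cAMP signalling and nuclear receptors, were then read beside it. In cold iBAT, with 13.2% of all genes called, 2 of 26 rose and 7 fell, with a median log2 fold change of -0.31 against -0.02 over all genes. Adrb3, the beta adrenergic receptor of fat cells, went from 292 to 404 CPM (log2 fold change 0.63), while the transcriptional coactivator Ppargc1a went from 116 to 55.6 CPM (-0.91) and the fatty acid receptor Ppara fell by 1.25 on the log2 scale. Gnas, of the stimulatory G protein, was among those called lower, but it was at 145 CPM here against 3613 CPM in iBAT of the other table, so it was counted differently and its value is uncertain. In cold ingSAT, with 16.3% of all genes called, 6 of 26 rose and 3 fell (median 0.20 against -0.01). Dio2, which makes active thyroid hormone, went from 2.46 to 23.9 CPM (3.26), and Ppargc1a (0.97), its relative Ppargc1b (1.08), the nuclear receptors Esrra (0.78) and Esrrg (2.10) and Ppara (0.84) rose as well. Ppargc1a thus fell in cold iBAT (adjusted p = 0.0646, edgeR F-test) and rose in cold ingSAT (adjusted p = 0.0253), while Ucp1 rose in both. In warm iBAT, with 19.4% of all genes called, 1 of 26 rose and 9 fell (median -0.29 against 0.02). Dio2 went from 139 to 16.9 CPM (-3.28), and Ppargc1a (-1.45) and the adenylyl cyclase Adcy3 (-1.36) fell. With library size as the only scaling, which moved the median of all genes in warm iBAT by 0.30, the list had 3 higher and 4 lower. In cold quadriceps, with 3.32% of all genes called, 4 of 25 rose and 0 fell, namely Adcy3 (1.10), Adrb3 (1.45), Pparg (0.99), the receptor that directs fat cell formation, and Dio2 (0.96), beside the adipocyte markers described above. In cold pgVAT, with 7.94% of all genes called, 0 rose and 1 fell of 26, and without the control of 332 CPM of Ucp1 2 rose and 0 fell.

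Genes that respond to fatty acids, as Ucp3 does, and enzymes of lipid release were read beside Ucp3. In cold ingSAT, where Ucp3 rose, 11 of 18 fatty acid responsive genes rose and 3 fell, with a median of 1.136 against -0.01 over all genes, of which 16.3% were called. They include Fabp3, a fatty acid carrier of oxidative cells, which went from 1.35 to 29.6 CPM (4.43), Cpt1b, which admits fatty acids to mitochondria (2.97), the carnitine carrier Slc25a20 (1.78), the droplet protein Plin5 (1.75) and Pdk4, which spares glucose (1.76). In warm iBAT, where Ucp3 fell, 1 of 18 rose and 8 fell (median -0.58 against 0.02, 19.4% of all genes called). The thioesterase Acot1 went from 16.6 to 0.707 CPM (-4.84), and Slc25a20 (-1.08), Plin5 (-0.73) and Hadha of mitochondrial beta oxidation (-0.77) fell with it. In cold iBAT, where Ucp3 was not called, 2 rose and 2 fell of 18 (median 0.06 against -0.02, 13.2% of all genes called), with Plin2, another droplet protein, at 1.29. In cold quadriceps, where Ucp3 fell, 1 rose and 3 fell of 18 (median -0.04 against 0.01, 3.32% of all genes called). The gene that rose was Plin2 (0.91, adjusted p = 0.0355, edgeR F-test). Those that fell were Pdk4 (-1.14), Cpt1a (-0.66) and Acot1 (-1.11), with adjusted p of 0.149 to 0.272.

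Of 12 genes of lipolysis and its control and of fatty acid uptake and activation, 2 rose and 1 fell in cold iBAT (13.2% of all genes called). These were Acsl5, an acyl-CoA synthetase (2.01), the monoglyceride lipase Mgll (0.76) and G0s2, an inhibitor of the triglyceride lipase (-0.78). In cold ingSAT 3 rose and 1 fell (16.3% of all genes called), with Slc27a2, a fatty acid transporter (3.19), Acsl5 (1.51) and G0s2 (0.85) higher and the hormone-sensitive lipase gene Lipe (-0.62) lower. In warm iBAT 0 rose and 6 fell (median -0.59 against 0.02, 19.4% of all genes called), namely Abhd5, the coactivator of the triglyceride lipase (-1.40), Acsl1 (-1.33), Acsl5 (-2.33), Mgll (-1.14), Slc27a1 (-0.68) and Slc27a2 (-0.91). In cold quadriceps 4 of 11 rose (3.32% of all genes called), which were Acsl5 (1.598), G0s2 (1.11), Mgll (0.66) and the fat cell droplet protein Plin1 (0.98). Plin1 was the 1 of 11 that fell in warm quadriceps (-0.93, adjusted p = 0.773, edgeR F-test). Of 7 other SLC25 carriers closest to the family, few were called and the counts in iBAT were near or under these shares of all genes. There was 1 in cold iBAT, the dicarboxylate carrier Slc25a10 (0.96), and 1 in warm iBAT, Slc25a27 (0.80). In cold ingSAT the nucleotide carrier Slc25a5 (0.59) rose and Slc25a30 (-0.66) fell. Slc25a10 also rose in cold quadriceps (1.15, adjusted p = 0.190, edgeR F-test), where 3.32% of all genes were called.

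Over the 16 tissue and temperature groups of the 8 tissues, the genes whose mean log levels ran most like those of each member were found by Pearson correlation among 15680 genes, as a description. For Ucp1 these were Rmdn1, Mecr, Etfrf1, Otop1 and Pdk4, each at 0.96. For Ucp2 they were Pole2 (0.98), Arhgap17, Rbl1, Mier1 and Cenpj, and for Ucp3 Adam12 (0.98), 2610507B11Rik, Gsto2 and Apmap among its 5. With rank correlation 1, 2 and 1 of the 5 genes were kept, with the 22 °C groups alone 1, 0 and 2, and without the 4 libraries that stood apart 1, 3 and 3. Among the members the correlation was 0.80 between Ucp1 and Ucp3, -0.26 between Ucp1 and Ucp2 and -0.12 between Ucp2 and Ucp3. The groups of a tissue at 10 °C and 22 °C are not independent points, and 3 libraries stand behind each.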

How the data were processed

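Libraries for mRNA sequencing were made by the authors with the NEBNext Ultra kit for the 8 tissues of the largest table and the TruSeq stranded mRNA kit for the others, at separate sites. Per the labels the reads were processed with STAR 2.5.3a, Picard 1.141 and HTSeq 0.6p1 on mm10, while the study's methods name other versions. The authors deposited raw counts per gene, without scaling, and alignment and counting were not repeated. The labels name the 34 °C protocol on every sample, so groups came from titles and sources. Quadriceps columns of the 22 °C group were not tied to an experiment by the labels, and all 6 served both comparisons. By column name, 1 to 3 stand with the cold libraries and 4 to 6 with the warm ones. The study's methods name different suppliers for cold and warm mice, so the comparisons with all 6 can mix both experiments. The authors' mean columns match quadriceps 22 °C columns 1 to 3 and leave 22 °C brain library 2 out.

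From these counts, levels were computed as CPM, and a separate model for each pair of groups was fitted with edgeR 4.0.16 under R 4.3.3 (TMM scaling, average log2 CPM above 0, quasi-likelihood F-test, two-sided). The SE is the log2 fold change divided by the square root of F. Of 48 pairs of member and comparison, 13 fell under the filter and were tested with an exact two-sided permutation test over libraries, whose smallest p is 0.1 with 3 against 3, 0.00216 with 6 against 6 and 0.00794 with 5 against 5. Differences between tissues were interaction terms within a table. No p was adjusted across comparisons. On simulated data for cold iBAT (12798 genes tested), 99 of 100 genes changed 2-fold and 100 of 100 changed 4-fold were called, with 1.14% of unchanged genes. For simulated differences of changes (12829 genes tested), 75 of 100 2-fold and 100 of 100 4-fold ones had an adjusted p under 0.05, with 0.103% of unchanged genes. The changed genes had an average log2 CPM above 3 and trended dispersions, so lower or more variable genes may be found less often. Of 21647 Ensembl IDs, 21581 had a unique symbol, and 0 pairs of libraries had identical counts. Totals per library were 4262403 to 25964912 in the 8 tissues, 29545458 to 62880248 in the warm tissues and quadriceps, 15591374 to 22139577 in bone marrow and 21953207 to 29029283 in spinal cord. Limits from 0 counts cover counting error only. Promoters are from RefSeq (GRCm38.p6) and found for all 3 members, and gene positions from GENCODE M21. Members and lists were chosen with earlier results of these data known, the lists of regulators, fatty acid responsive, lipolysis and carrier genes and the cell markers were written from textbook knowledge, and from each list at most 6 called genes with the lowest p could be named. Some genes that these rules select are not reported here. The genes most like a member were the 5 with the highest Pearson r of log2(CPM + 0.5). Replicate numbers did not pair the libraries, since in 0 of 8 tissues all same-numbered pairs had a correlation of deviations over 0.1. Alternatives were DESeq2 1.42.0, its size factors, library size only, other filters, edgeR's exact test, all groups of a table in 1 model, adjusted p, own controls, a replicate block and leaving out each library.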

Additional observations from a re-analysis of the deposited data

Results flagged for a closer look

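Of 14 sets of a member and a group of at least 5 libraries checked for a library far from the others, 1 stood out. Ucp1 in quadriceps at 22 °C had its highest library at 7.55 CPM, with the next at 1.16 CPM, and chance alone marks about 1 in 20 such sets. This control also had the highest adipocyte signal of its group. The other results set apart are differences between the changes of tissues. The change of Ucp1 at 10 °C was larger in ingSAT than in pgVAT by 11.64 on the log2 scale, or 6.11 without the pgVAT control of 332 CPM. The change of Ucp2 at 34 °C was higher in iBAT than in ileum by 0.95, in liver by 1.18, in brain by 0.95 and in quadriceps by 1.10. The change of Ucp3 at 34 °C was lower in iBAT than in brain, at -2.04, and than in quadriceps, at -2.26. Each of them passed the interaction test at an adjusted p under 0.05, and all those at 34 °C share the iBAT libraries.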

How the results depend on the processing

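Ucp1 and Ucp3 in cold ingSAT and all members in warm iBAT kept their calls and directions under every alternative run, except that Ucp3 in ingSAT (0.91) missed the limit on p when all groups shared 1 model. In that model Ucp1 in cold iBAT (0.88) was not called either, nor was it by an adjusted p (0.0850). Ucp1 in cold pgVAT was called with the exact test of edgeR (-4.32), without a filter (-4.17) and with all groups in 1 model (-4.29). Ileal Ucp3 at 10 °C lost its call with DESeq2 (1.11), library size only (1.08), all groups (1.139) and an adjusted p (0.280). By an adjusted p, Ucp3 in cold quadriceps (0.127) and Ucp1 in warm quadriceps (0.740) were not called and Ucp2 in bone marrow was (0.0294). Values near 0 changed sign for spinal cord Ucp3 with DESeq2 (0.00034) and another filter (0.0029), for Ucp2 in cold quadriceps with library size only (0.16) and own controls (0.12), for Ucp3 in warm quadriceps with own controls (-0.16), and for Ucp2 between pgVAT and iBAT with library size only (0.093). With library size only, the median log2 fold change of all genes was 0.30 in warm iBAT, -0.18 in cold iBAT and 0.16 in cold quadriceps, and the called genes split 3086 higher to 408 lower (1505 to 887 with TMM), 486 to 1491 (768 to 926) and 561 to 47 (309 to 83), while every called member of these tissues kept its direction. By an adjusted p, regulators of Ucp1 called in cold quadriceps went from 4 to 0, its fatty acid responsive genes from 4 to 1 and its lipolysis genes from 4 to 2, and lipolysis genes went from 3 to 1 in cold iBAT and from 4 to 2 in cold ingSAT. With all 8 tissues in 1 model the Ucp1 difference between ingSAT and iBAT (6.3997) was called. A replicate block was fitted for 19 results and changed no call. It was not run for spinal cord, bone marrow and the warm tissues, whose columns carry no label numbers.

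With each library left out in turn, at least 1 omission changed a call or a sign in the following. For Ucp1 these were the 10 °C changes of iBAT (0.66 to 1.18), pgVAT (-4.89 to 1.13) and liver (-4.63 to 2.06), the p of warm quadriceps (0.0238 to 0.0706), and the differences of ingSAT from iBAT (6.10 to 7.27), ingSAT from pgVAT (6.11 to 12.45) and pgVAT from iBAT (-5.77 to 0.35). For Ucp2 they were ingSAT (-0.73 to -0.19), pgVAT (-0.34 to 0.25), quadriceps at 10 °C (-0.29 to 0.20) and 34 °C (-0.36 to 0.022), warm brain (-0.17 to 0.10), warm ileum (-0.20 to 0.054), and the differences of iBAT from brain (0.84 to 1.09) and ileum (0.84 to 1.09) at 34 °C and of pgVAT from iBAT (-0.26 to 0.32). For Ucp3 they were ileum (1.06 to 1.44), iBAT (-0.23 to 0.16), pgVAT (-0.25 to 0.66), brain (-0.26 to 0.054) and spinal cord (-0.052 to 0.094) at 10 °C, warm quadriceps (-0.17 to 0.22) and the difference of pgVAT from iBAT (-0.20 to 0.67). Bone marrow Ucp3, which was under the filter with all libraries, entered the fit in 4 omissions and was called in 1, without control 1 (0.65). The cause of these changes was not tested. Leaving out several doubted libraries together, the limits on warm quadriceps Ucp1 without the control of 7.55 CPM and the own controls for the difference of iBAT from quadriceps were chosen after seeing the data. Depth limits ileal Ucp3, with 10 to 47 counts per library at 10 °C and its controls, and Ucp1 in the tissues other than fat, quadriceps and the livers of the largest table, with at most 39 counts. It also limits Ucp1 in warm quadriceps, where the lowest controls held 2, 3 and 4 counts.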
